A study of Arabidopsis thaliana with 12 samples.

Results

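Root stumps of Arabidopsis thaliana were compared at 14 h and at 4 h after the root tip had been cut off. The comparison used 4 of the 12 libraries in the series, namely the mock and the CNQX library of each of these times, chosen by their labels. All 4 came from Col-0 wild type seedlings 7 days after sowing, which had been kept for 1 h on a mock plate or on a plate with 50 µM CNQX. The labels leave it unsaid if the plates used after the cut held the drug. CNQX is an antagonist of animal ionotropic glutamate receptors, and plants carry related proteins, the glutamate receptor-like channels. About 130 µm of the tip was cut off, and the 100 µm or so of root next to the wound was collected 4 h or 14 h later, so that the stretch of root was the same at both times. Of the other 8 libraries, 4 were uncut root tips (2 mock and 2 CNQX, collected after 14 h on their plates) and 4 were stumps taken at 30 min or 24 h. For the latest time the series description gives another hour than the sample labels, and 24 h is that of the labels.

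A cut root first answers the wound, with calcium and jasmonate signals and the genes they switch on. Cells near the cut can then divide, regain the identities that were lost and rebuild a meristem. Root cells that leave the meristem stop dividing, elongate and take on their final forms. Epidermal cells grow hairs, the endodermis lays down the Casparian strip, a lignin band that seals the space between cells, and xylem cells build lignified secondary walls.

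Each time and drug had 1 library. The change from 4 h to 14 h was therefore fitted over both drugs at once, with the drug as a second term, and the spread was how far that change differed between the mock pair and the CNQX pair. Nothing in the labels says that libraries came from separate cultures, so p values cover only the spread among the libraries themselves. The fit leaves 1 residual degree of freedom before it is moderated over genes. Total counts were 1838036 to 2311501 in the 4 libraries, so that 1 count stood for 0.413 to 0.506 CPM (CPM scales each library's counts to the same total, here with a correction for composition). The floor used below was 3 counts. Mitochondrial loci took 9.07% to 9.29% of counts at 4 h and 13.1% to 16.0% at 14 h. Of the 300 genes called below, 299 were called again when mitochondrial, plastid and ribosomal RNA loci were left out, and the other one was such a locus and was not tested. The mock 24 h library, used below only for reference levels, had 1.75% of its counts in ribosomal RNA loci against 5.32% to 10.2% in the other 11. The root cap lies at the tip, the part that was cut off. SMB (AT1G79580), a transcription factor of root cap cells, had no count in any of the 4 stump libraries and 3.97 to 16.9 CPM in the 4 uncut tips. ARF10 (AT2G28350), also on the root cap list, had 14.2 to 19.8 CPM in these stumps and 5.70 to 21.1 CPM in uncut tips.

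More genes rose than fell between 4 h and 14 h, among them 5 of 10 tested genes of the Casparian strip, 6 of 8 of photosynthesis and 4 of 12 of xylem. Of 14491 genes tested, 266 rose and 34 fell by edgeR's quasi-likelihood test with Benjamini-Hochberg adjustment at 0.05. That is 2.07% of genes called, 1.84% higher and 0.235% lower at 14 h, and all 300 differed by more than 2-fold. The median gene did not shift (log2 fold change -0.01). Both 14 h libraries lay above both 4 h libraries in 25.2% of genes tested and below both in 23.8%. Levels that do not overlap, as given below for single genes, were thus common. The count of called genes depended on single libraries, above all on mock 14 h. Fits of 3 libraries could not keep the drug term, which alone moves the count to 605 with all 4 libraries, and took the lone library of a time to vary like the pair of the other time. In these fits it was 135 without mock 14 h, 777 without mock 4 h, 1351 without CNQX 4 h and 981 without CNQX 14 h. In edgeR fits of the 11 libraries left it was 0 without mock 14 h (834 genes at an unadjusted p under 0.05), 13 without mock 4 h, 228 without CNQX 4 h and 81 without CNQX 14 h. Of the 54 called genes that the naming rule took, 30 were called without mock 14 h in the fit of 3 libraries. Those not called included FRD3, AT3G45070, AT1G60680, AT4G02090, GL22, XTH5, AGP30, AT1G52060, AT1G52050, RD29A, WOX11, HINKEL, CYCB1;4, CASP2, PRP3, CESA8, RBCS1A, LHCB1.3, PSBO1, LHCB5, THAH1 and THAD1, and PRXCB was not tested. XTH5 also lost its call without mock 4 h and AT3G06460 without CNQX 4 h, and all 54 kept their sign.

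In bulk tissue, more cells of a type and more RNA per cell cannot be told apart. The labels give no clock times, so hours after the cut and time of day cannot be told apart either. Uncut tips held the end of the root, which the stumps had lost. In levels set against them, the cut and the position along the root cannot be told apart.

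The levels of these genes in the 8 libraries outside the comparison were not used to choose them. Over the 266 genes higher at 14 h, the median was 0 to 0.941 CPM in the 4 uncut tips and 0.574 (mock) and 0.390 CPM (CNQX) at 30 min. It was 1.01 and 2.30 CPM at 4 h, 48.1 and 25.02 CPM at 14 h, and 55.6 and 43.5 CPM at 24 h. Most of these genes were thus near the floor in uncut tips as well as in early stumps, and at both late times they were not. Of the 266 genes, 37 had no count at 4 h and 95 had 3 counts or fewer over both 4 h libraries. The 34 genes lower at 14 h had medians of 34.0 to 62.3 CPM in uncut tips, 58.6 and 48.6 CPM at 30 min and 52.6 and 71.1 CPM at 4 h. They stood at 4.75 and 14.2 CPM at 14 h and at 1.54 and 5.44 CPM at 24 h.

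**Figure D1:**
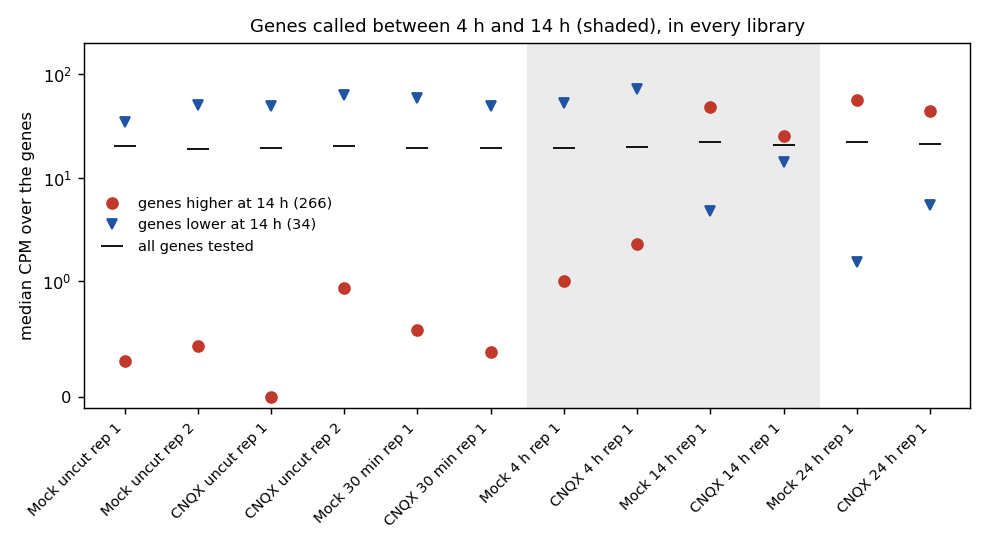
Median CPM (vertical axis, log scale that is linear below 1) of the 266 genes higher and the 34 genes lower at 14 h, with the median of all genes tested as a dash, in each of the 12 libraries. The shaded libraries chose the genes; in the mock and CNQX 24 h libraries the higher genes have medians of 55.6 and 43.5, against 0 to 0.941 in the uncut tips.

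Summed over the list, genes of jasmonate synthesis and response had been high at 30 min and were near uncut levels by 4 h. Of 25 on the list, 12 were tested and none was called, which with 2.07% of all genes called is no result about the list. Their median log2 fold change was -0.10. AOS (AT5G42650), an enzyme of jasmonate synthesis, had 4.55 (mock) and 6.90 CPM (CNQX) at 4 h and 4.13 and 2.45 CPM at 14 h. At 30 min it had 107 and 196 CPM, so its 4 h levels were already near those of the uncut tips, 6.10 to 18.6 CPM. JAZ10 (AT5G13220), a repressor that jasmonate induces, followed the same course, with 129 and 159 CPM at 30 min and 1.38 to 2.48 CPM in the 4 libraries compared, too few counts to be tested. Summed over the list, the level was 1888 and 2542 CPM at 30 min, 341 and 408 CPM at 4 h and 331 and 313 CPM at 14 h. JAZ3 (AT3G17860), another repressor of this family, had 36.4 and 33.1 CPM at 4 h and 11.1 and 7.36 CPM at 14 h. Its levels did not overlap, yet the log2 fold change of -1.92 ± 0.47 (SE) missed the threshold (edgeR adjusted p = 0.068).

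The 12 tested genes of early wound, calcium and touch response had a median log2 fold change of 1.298, with 11 of 12 positive (49.6% of all genes tested were) and none called. All 18 genes on the list summed to 148 (mock) and 205 CPM (CNQX) at 4 h and 277 and 275 CPM at 14 h. The 14 h sums lay within the 165 to 320 CPM of uncut tips and below the 986 and 1634 CPM at 30 min. XTH22 (AT5G57560), a wall enzyme induced by touch, had 4.05 and 2.30 CPM at 4 h and 8.67 and 8.83 CPM at 14 h, against 63.2 and 109 CPM at 30 min (log2 fold change 1.47 ± 0.74, edgeR adjusted p = 0.435). No gene was called among 7 of salicylic acid defence, 4 of indole glucosinolate and camalexin synthesis and 3 of hypoxia. Nor was any among 2 of heat shock and 4 of the clade 3 glutamate receptor-like channels. With 2.07% of all genes called, that is no result about these lists, nor is it for lists below with no call. GLR3.3 (AT1G42540), a clade 3 channel that carries wound signals in leaves, had 24.8 and 18.4 CPM at 4 h and 19.0 and 10.3 CPM at 14 h. Its ranges overlapped, and the log2 fold change was -0.60 ± 0.48 (edgeR adjusted p = 0.676).

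Single genes of other stress lists passed. GSTU8 (AT3G09270), a glutathione transferase, had 46.0 and 62.1 CPM at 4 h and 266 and 216 CPM at 14 h. It rose by 2.16 ± 0.39 (log2, edgeR adjusted p = 0.0209). Of 18 genes tested for detoxification it was the 1 called, against 2.07% of all genes, and the list's median was -0.32. Among 5 genes tested for abscisic acid and cold, 1 rose and 1 fell, against 1.84% and 0.235% of all genes. RD29A (AT5G52310), a gene of drought and cold response, had 1.01 and 2.76 CPM at 4 h and 45.8 and 20.12 CPM at 14 h (log2 fold change 3.96 ± 0.70, edgeR adjusted p = 0.019). KIN1 (AT5G15960), also induced by cold and abscisic acid, went from 44.0 and 58.0 CPM to 13.6 and 8.83 CPM (log2 fold change -2.18 ± 0.45, edgeR adjusted p = 0.0371). Its call was lost in 3 alternatives that left out no library. The list's name thus covers genes that moved in opposite directions, and KIN1 stood at 182 and 57.5 CPM at 24 h.

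Of 24 factors tied to wound regeneration, 13 were tested and 1 rose, against 1.84% of all genes. None was called in the fit of all 12 libraries. WOX11 (AT3G03660), a homeobox gene that starts new roots in cut leaves, had 0 (mock) and 0.460 CPM (CNQX) at 4 h and 10.7 and 10.3 CPM at 14 h. Both 14 h libraries were far above both 4 h libraries. With 1 count over both 4 h libraries against 47, the ratio was 43.7, with an exact 95% interval of 7.47 to 1763 that covers counting error only (edgeR adjusted p = 0.0438). The call was lost in 5 alternatives that left out no library, DESeq2 among them (adjusted p = 0.1). RAP2.6 (AT1G43160), an ethylene response factor, went from 4.05 to 67.3 CPM in mock and from 19.3 to 31.4 CPM in CNQX. The levels did not overlap, but the drugs differed in the size of the change and the gene was not called (log2 fold change 2.15 ± 0.69, edgeR adjusted p = 0.168). WOX13 (AT4G35550), a homeobox gene of wound callus, had 10.1 and 20.7 CPM at 4 h and 35.5 and 26.0 CPM at 14 h (log2 fold change 1.04 ± 0.50, edgeR adjusted p = 0.405). LBD16 (AT2G42430), a factor of lateral root initiation that auxin induces, was not tested, as only its mock 14 h library had more than 5 counts (47). It had 0 and 1.84 CPM at 4 h, 19.4 and 2.45 CPM at 14 h and none in uncut tips. ERF115 (AT5G07310), which responds to damaged neighbour cells, had 0.826 to 1.84 CPM in the 4 libraries and was not tested either.

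None of 7 tested genes of the stem cell niche was called (median log2 fold change -0.16), and 10 of 17 had too few counts. SCR (AT3G54220), which keeps the niche and the endodermis, had 83.0 and 89.7 CPM at 4 h and 83.8 and 71.1 CPM at 14 h (log2 fold change -0.16 ± 0.36, edgeR adjusted p = 0.915). Its levels overlapped between the times and lay within the 53.2 to 100 CPM of uncut tips. WOX5 (AT3G11260), which marks the quiescent centre, had 1.01 and 1.38 CPM at 4 h and 2.89 and 4.42 CPM at 14 h, 16 counts in all at 14 h. BRAVO (AT5G17800), a MYB repressor of division in the quiescent centre, had 1.01 and 0.460 CPM at 4 h and 10.3 and 7.85 CPM at 14 h. With 3 counts against 41 the ratio was 12.7 (exact 95% interval 4.06 to 64.2), and it was not called (edgeR adjusted p = 0.0901). PLT1 (AT3G20840), a master gene of the root meristem, had 1 count in the 4 libraries and 3.95 to 20.23 CPM in uncut tips.

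Mitotic genes had mostly positive log2 fold changes, and few passed the test. Of 22 G2/M genes tested, 18 had positive log2 fold changes, against 49.6% of all genes tested. Their median was 1.87, and 2 rose, against 1.84% of all genes. HINKEL (AT1G18370), a kinesin that builds the division plane, had 4.05 and 1.84 CPM at 4 h and 28.1 and 21.6 CPM at 14 h. The libraries separated clearly by time, and the gene rose by 3.097 ± 0.60 (log2, edgeR adjusted p = 0.0268), to less than the 64.0 to 75.0 CPM of uncut tips. CYCB1;4 (AT2G26760), a mitotic cyclin, had 2.53 and 0.460 CPM at 4 h and 22.3 and 9.32 CPM at 14 h (log2 fold change 3.45 ± 0.76, edgeR adjusted p = 0.0449). At 24 h both genes differed between drugs, HINKEL with 4.12 CPM in mock and 49.3 in CNQX, and CYCB1;4 with 0.343 and 19.7 CPM, in single libraries. KNOLLE (AT1G08560), the syntaxin of cell division, went from 10.6 to 20.6 CPM in mock and from 0.920 to 40.7 CPM in CNQX and was not called (log2 fold change 2.58 ± 0.83, edgeR adjusted p = 0.173). Over the G2/M list the median log2 ratio was 0.94 in the mock pair and 2.21 in the CNQX pair. None of the list was called in the fit of all 12 libraries, and with 1 library left out the median log2 fold change ran from 0.83 to 3.57. CYCB1;4 lost its call in 6 and HINKEL in 3 alternatives that left out no library.

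The 18 tested genes of S-phase and replication had a median log2 fold change of -0.55, with 14 of 18 negative and none called. The median log2 ratio was -0.78 in the mock pair and 0.04 in the CNQX pair, and with 1 library left out the median log2 fold change came as close to 0 as -0.004 and as low as -0.98. MCM2 (AT1G44900), a subunit of the replicative helicase, had 32.9 and 25.8 CPM at 4 h and 17.8 and 35.3 CPM at 14 h, so that mock and CNQX moved in opposite directions (log2 fold change -0.21 ± 0.46, edgeR adjusted p = 0.915). Genes of hormone supply and response were not called. All 7 tested genes of auxin response were positive, with a median of 1.02. TAA1 (AT1G70560), an enzyme of auxin synthesis, had 63.2 and 46.9 CPM at 4 h and 7.84 and 19.6 CPM at 14 h. Both libraries at 14 h were lower, but the log2 fold change of -2.09 ± 0.50 missed the threshold (edgeR adjusted p = 0.0659). The 6 tested cytokinin response genes were all positive, with a median of 0.61.

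**Figure D2:**
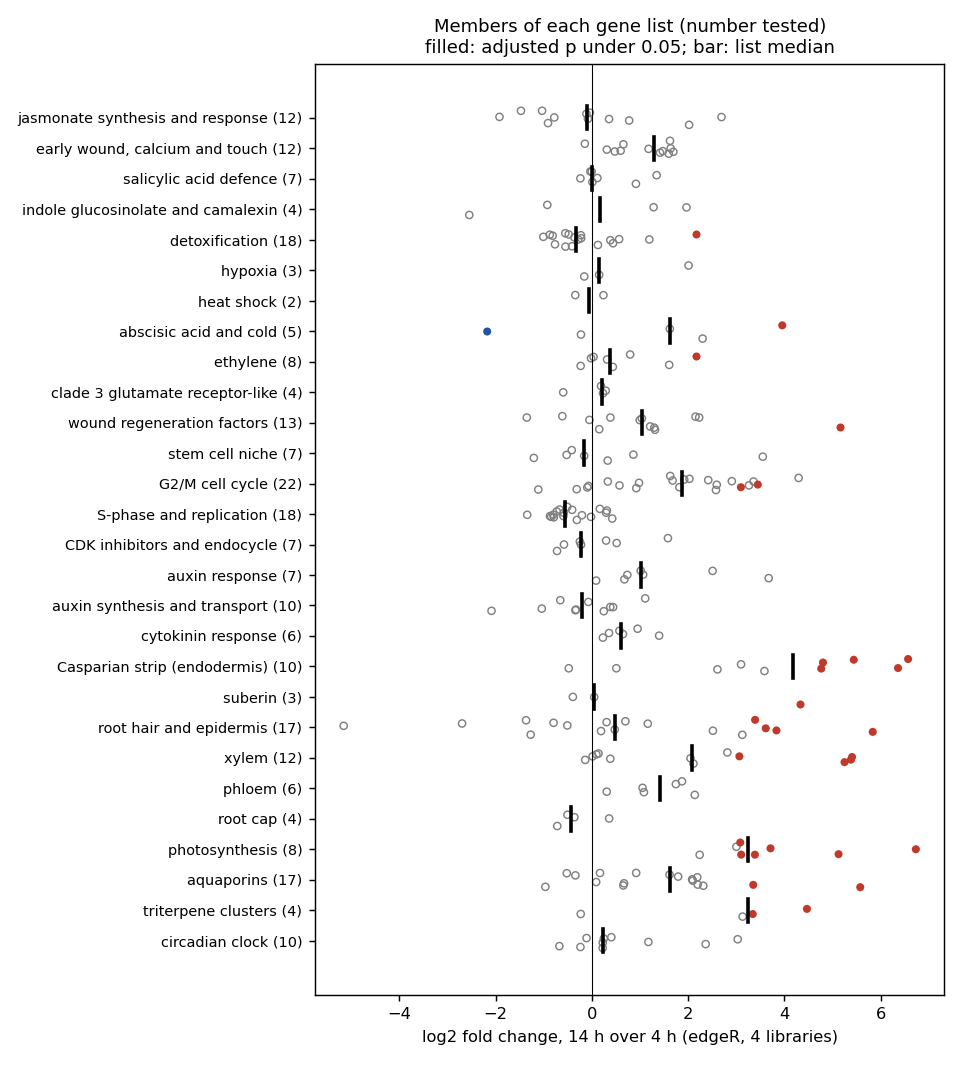
Each circle is a tested member of a gene list, placed by its edgeR log2 fold change of 14 h over 4 h (horizontal axis); filled circles have an adjusted p under 0.05 and the black bar is the list median. The Casparian strip list has a median of 4.18 with 5 of 10 members filled, and the jasmonate list a median of -0.10 with none. Members near the floor at 4 h could be tested only through their 14 h counts, which favours positive values.

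Genes for the scaffold and the lignin of the Casparian strip were at or near the floor at 4 h and rose. Of 13 on the list, 10 were tested and 5 rose, against 1.84% of all genes, and the median log2 fold change was 4.18. A gene near the floor at 4 h could be tested only through its 14 h counts, which favours positive values in this median. CASP1 (AT2G36100), a membrane scaffold of the strip, had 0.506 (mock) and 1.38 CPM (CNQX) at 4 h and 123 and 56.4 CPM at 14 h. Both late libraries were far above both early ones, and the gene rose by 6.36 ± 0.64 (log2, edgeR adjusted p = 0.00225). The related scaffold CASP4 (AT5G06200) had 0.506 and 0 CPM at 4 h and 35.9 and 20.6 CPM at 14 h, a ratio of 120 (exact 95% interval 21.2 to 4777, from 1 count against 129). CASP2 (AT3G11550) had 0 and 0.920 CPM at 4 h and 42.9 and 11.3 CPM at 14 h, a ratio of 59.1 (interval 16.0 to 493). ESB1 (AT2G28670), a dirigent protein that localizes lignin to the strip, had 4.05 and 3.22 CPM at 4 h and 148 and 68.2 CPM at 14 h (log2 fold change 4.80 ± 0.49, edgeR adjusted p = 0.00225). PER64 (AT5G42180), the peroxidase that polymerizes this lignin, had 0.506 and 4.60 CPM at 4 h and 99.5 and 50.5 CPM at 14 h (log2 fold change 4.77 ± 0.72, edgeR adjusted p = 0.00981). In each of these 5 genes the mock 14 h library was higher than the CNQX 14 h library, and neither overlapped with 4 h.

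MYB36 (AT5G57620), the transcription factor that switches these genes on, had 2.53 and 11.96 CPM at 4 h and 48.7 and 33.4 CPM at 14 h. Its levels did not overlap, yet with unequal changes in the drugs the log2 fold change of 2.61 ± 0.64 missed the threshold (edgeR adjusted p = 0.0683). At 24 h it was at 1.37 and 2.59 CPM, within the 0.941 to 2.63 CPM of uncut tips, while CASP1 was still at 26.8 and 34.7 CPM and ESB1 at 19.2 and 65.8 CPM. In the fits of 3 libraries, 4 genes of the list were called without mock 14 h and 8 without CNQX 4 h. In fits of all remaining libraries the count was 0 without mock 14 h and 1 without mock 4 h.

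Genes of the suberin barrier, which the endodermis adds later, were mostly at or under the floor at both times. Of 18 genes, 15 had too few counts to be tested and 6 had none in the 4 libraries. GPAT5 (AT3G11430), an acyltransferase of suberin synthesis, had no count at either time and 4.46 CPM in mock and 0.518 in CNQX at 24 h. ASFT (AT5G41040), which adds ferulate to suberin, was the exception, with 0 and 3.22 CPM at 4 h and 43.8 and 25.02 CPM at 14 h. Its libraries did not overlap, and it rose by 4.33 ± 0.86 (log2, edgeR adjusted p = 0.0305). The call was lost in 3 alternatives that left out no library.

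Of 17 tested genes of root hair and epidermis 4 rose, against 1.84% of all genes. All 4 were wall genes of root hairs, and the median log2 fold change of the list was 0.48. The median log2 ratio was 0.90 in the mock pair and -0.08 in the CNQX pair, and with 1 library left out the median log2 fold change ran from -0.17 to 1.14. In fits of the 11 libraries left, none of the list was called without mock 4 h or without mock 14 h. The expansin EXPA7 (AT1G12560), which loosens the root hair wall, had 2.02 and 9.20 CPM at 4 h and 72.2 and 57.9 CPM at 14 h. All of its late values stood above the early ones, with a log2 fold change of 3.61 ± 0.59 (edgeR adjusted p = 0.013). Its relative EXPA18 (AT1G62980) had 0 and 0.920 CPM at 4 h and 49.5 and 18.15 CPM at 14 h, a ratio of 73.0 (exact 95% interval 19.9 to 608). LRX1 (AT1G12040), a wall protein of root hairs, went from 3.04 and 12.9 CPM to 114 and 54.5 CPM (log2 fold change 3.39 ± 0.66, edgeR adjusted p = 0.0268). PRP3 (AT3G62680), a proline-rich wall protein, went from 0.506 and 8.74 CPM to 94.9 and 40.2 CPM (log2 fold change 3.84 ± 0.83, edgeR adjusted p = 0.0421). Its call was lost in 5 alternatives that left out no library. For all 4 genes the CNQX 4 h library was higher than the mock 4 h library.

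RSL4 (AT1G27740), which sets hair growth, had 5.06 and 13.3 CPM at 4 h and 19.4 and 19.1 CPM at 14 h, against 0.305 to 0.642 CPM in uncut tips (log2 fold change 1.16 ± 0.57, edgeR adjusted p = 0.412). COBL9 (AT5G49270), needed for hair elongation, was high in CNQX at 4 h already, with 25.8 and 77.3 CPM at 4 h and 75.5 and 72.1 CPM at 14 h, and its ranges overlapped. WER (AT5G14750), which specifies hairless cells and is also made in the lateral root cap, moved the other way, with 12.6 and 7.82 CPM at 4 h and 0 and 0.491 CPM at 14 h. With 42 counts against 1, the ratio was 45.1 in favour of 4 h (exact 95% interval 7.67 to 1825), just outside the threshold (edgeR adjusted p = 0.0519).

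Of 23 genes on the xylem list 12 were tested and 4 rose, against 1.84% of all genes, with a median log2 fold change of 2.08. Here too the filter admitted genes near the floor at 4 h only through their 14 h counts, which favours a positive median. In the fit of all 12 libraries 2 were called, and with 1 library left out the median ran from 1.464 to 2.635. LAC4 (AT2G38080), a laccase that lignifies the vascular wall, had 0.506 and 1.84 CPM at 4 h and 67.3 and 42.2 CPM at 14 h. The times did not overlap, and the gene rose by 5.41 ± 0.65 (log2, edgeR adjusted p = 0.00343). LAC17 (AT5G60020), which acts with it, had 0.506 and 0.920 CPM at 4 h and 41.3 and 25.5 CPM at 14 h, a ratio of 47.1 (exact 95% interval 15.8 to 231). CESA8 (AT4G18780), a cellulose synthase of secondary walls, had 0 and 0.460 CPM at 4 h and 13.6 and 9.32 CPM at 14 h, a ratio of 48.4 (interval 8.31 to 1947, edgeR adjusted p = 0.04). XCP1 (AT4G35350), a protease of dying xylem cells, had 3.54 and 3.68 CPM at 4 h and 35.5 and 26.5 CPM at 14 h (log2 fold change 3.07 ± 0.55, edgeR adjusted p = 0.0198). No 14 h library overlapped with 4 h in any of these 4 genes, and CESA8 lost its call in 5 alternatives that left out no library. VND7 (AT1G71930), the master factor of protoxylem, had 3 counts over both 4 h libraries and 22 at 14 h, a ratio of 6.82 (interval 2.05 to 35.6), and was not tested. The 6 tested phloem genes all had positive log2 fold changes, with a median of 1.41 and none called. Of 4 tested genes of the root cap, none was called and the median was -0.44.

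**Figure D3:**
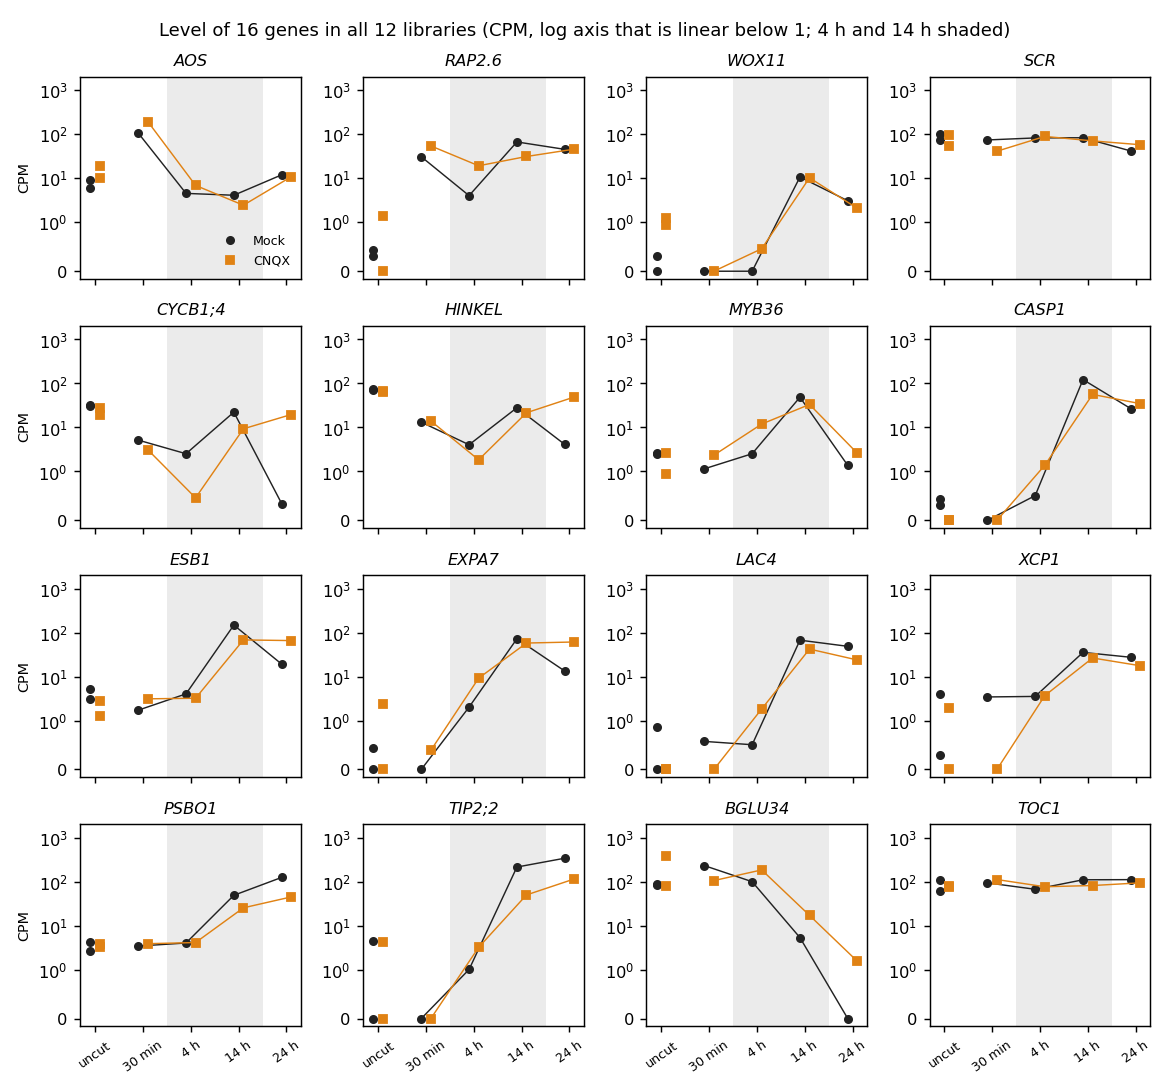
Level of 16 genes in all 12 libraries in CPM (vertical axis, log scale that is linear below 1), with mock as black circles and CNQX as orange squares; each point is 1 library and the 4 h and 14 h libraries are shaded. CASP1, ESB1, EXPA7, LAC4 and TIP2;2 are higher in both 14 h libraries than in both 4 h libraries, AOS is high at 30 min and low at 4 h, BGLU34 is lower at 14 h, and SCR has overlapping levels at 4 h and 14 h.

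Nuclear genes of photosynthesis were near the floor in uncut tips and early stumps and higher at 14 h. Of 8 tested, 6 rose, against 1.84% of all genes, and all were positive, with a median log2 fold change of 3.25. Genes near the floor at 4 h were tested only where their 14 h counts were high, which favours positive values. RBCS1A (AT1G67090), the small subunit of Rubisco, had 0.506 and 0 CPM at 4 h and 51.6 and 12.8 CPM at 14 h, a ratio of 140 (exact 95% interval 24.8 to 5585). The light-harvesting protein LHCB1.3 (AT1G29930) went from 2.02 and 0 CPM to 53.7 and 14.2 CPM (log2 fold change 5.13 ± 0.75, edgeR adjusted p = 0.00834), and LHCB5 (AT4G10340) from 1.52 and 1.84 CPM to 35.1 and 14.2 CPM. PSBO1 (AT5G66570), of the oxygen-evolving complex, had 4.05 and 4.14 CPM at 4 h and 49.1 and 25.5 CPM at 14 h (log2 fold change 3.103 ± 0.54, edgeR adjusted p = 0.0176). In all 4 genes the mock 14 h library had the highest level of the libraries compared. RBCS1A and LHCB1.3 have close copies in the genome, so reads could be split among them. Summed over the 13 genes, the level was 16.2 and 18.4 CPM at 4 h, 331 and 114 CPM at 14 h and 13.5 to 24.4 CPM in uncut tips. Plastid loci held 0.361% and 0.280% of counts at 4 h and 0.499% and 0.621% at 14 h, and with plastid, mitochondrial and ribosomal RNA loci left out the count was again 6. Without the mock 14 h library, none of these genes was called.

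Of 17 aquaporins tested, the channels that carry water across membranes, 2 rose, against 1.84% of all genes. Positive were 14, against 49.6% of all genes. TIP2;2 (AT4G17340), a channel of the vacuole membrane, had 1.01 and 3.22 CPM at 4 h and 215 and 50.0 CPM at 14 h. Mock ended higher than CNQX from a lower start, and the gene rose by 5.58 ± 0.73 (log2, edgeR adjusted p = 0.00488). PIP1;5 (AT4G23400), of the plasma membrane, had 11.6 and 35.4 CPM at 4 h and 267 and 180 CPM at 14 h (log2 fold change 3.35 ± 0.54, edgeR adjusted p = 0.0126). Over the whole list the sum was 1698 (mock) and 4763 CPM (CNQX) at 4 h and 7619 and 5623 CPM at 14 h. The median log2 ratio was 2.74 in the mock pair and 0.38 in the CNQX pair, in single libraries with no test. In the fit of all 12 libraries 1 aquaporin was called, and DESeq2 called 3. With 1 library left out, the median log2 fold change of the aquaporin list ran from 0.2521 to 2.598. Of 4 tested genes of the root triterpene clusters 2 rose, against 1.84% of all genes. They were the thalianol oxidases THAH1 (AT5G48000) and THAD1 (AT5G47990), which rose by 4.47 ± 0.79 and 3.34 ± 0.62 (log2). Their levels went from 0.506 and 1.38 CPM to 34.7 and 14.2 CPM and from 2.02 and 3.68 CPM to 40.5 and 21.6 CPM. None of 10 tested clock genes was called. TOC1 (AT5G61380), an evening gene of the clock, had 67.3 and 76.8 CPM at 4 h and 111 and 81.9 CPM at 14 h (log2 fold change 0.41 ± 0.37, edgeR adjusted p = 0.73).

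The 12 genes with the highest fitted changes, at an average log2 CPM of at least 2, had no count in either 4 h library. Their changes are therefore lower bounds, taken against 3 counts over both 4 h libraries. BGAL4 (AT5G56870), a beta-galactosidase, had 77.2 (mock) and 18.15 CPM (CNQX) at 14 h and was at least 69.5-fold higher than at 4 h. EXLB1 (AT4G17030), an expansin-like protein, had 72.2 and 18.15 CPM and was at least 65.7-fold higher. BGLU46 (AT1G61820), a beta-glucosidase that releases lignin precursors, had 68.9 and 15.2 CPM and was at least 61.4-fold higher. In all 3 genes mock was several times above CNQX at 14 h. FRD3 (AT3G08040), which exports citrate for iron transport to the shoot, had 47.5 and 7.85 CPM and was at least 40.6-fold higher. GASA5 (AT3G02885), a small peptide of the gibberellin-regulated family, had 36.7 and 18.6 CPM and was at least 39.4-fold higher. The other 7 genes were AT3G45070, AT1G60680, the subtilase AT5G45650, the peroxidase PRXCB (AT3G49120, which has a close copy), AT4G02090, AT4G25790 and the germin-like GL22 (AT1G02335), with bounds of 28.8 to 39.4. All 12 had at least 3.11 CPM in both 24 h libraries, which had no part in the choice.

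**Figure D4:**
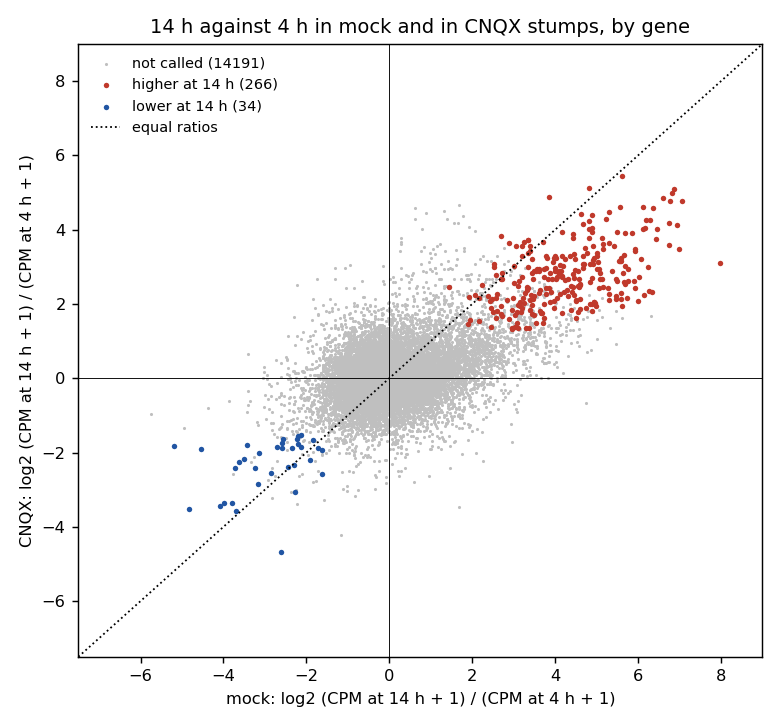
Log2 ratio of 14 h over 4 h, from CPM + 1, in the mock pair (horizontal axis) and in the CNQX pair (vertical axis), with 1 point per gene tested and the dotted line where both are equal. The 266 higher genes (red) and 34 lower genes (blue) lie in the quadrants where both drugs have the same sign, and 244 of the 266 lie below the dotted line.

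The 34 genes that fell included BGLU34 (AT1G47600) and BGLU35 (AT1G51470). They are myrosinases, enzymes that split glucosinolates into toxic products, and are close copies that may share reads. BGLU34 had 100 and 185 CPM at 4 h and 5.37 and 17.2 CPM at 14 h, with no overlap, and fell by 3.78 ± 0.43 (log2, edgeR adjusted p = 0.00327). BGLU35 had 93.6 and 156 CPM at 4 h and 5.78 and 14.2 CPM at 14 h. MLP-300B (AT3G16440), annotated as a myrosinase-binding protein, had 55.1 and 87.4 CPM at 4 h and 3.302 and 6.38 CPM at 14 h (log2 fold change -3.89 ± 0.46, edgeR adjusted p = 0.00338). The mannose-binding lectins AT1G52060 and AT1G52050 had log2 fold changes of -3.25 and -3.21. AT1G52060 lost its call in 2 and AT1G52050 in 3 alternatives that left out no library. All 5 were present in uncut tips, and at 24 h they were at 0 to 1.37 CPM in mock and 0.518 to 11.4 CPM in CNQX.

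Of the other 7 genes with the lowest fold changes, AT5G39240, annotated as an UPBEAT-like transcription factor, had 39.0 and 27.6 CPM at 4 h and 0.413 and 1.47 CPM at 14 h. Its groups were far apart, with a log2 fold change of -5.10 ± 0.72 (edgeR adjusted p = 0.00735). XTH5 (AT5G13870), an enzyme that cuts and rejoins wall xyloglucan, had 60.7 and 6.44 CPM at 4 h and 1.65 and 0.981 CPM at 14 h (log2 fold change -4.39 ± 0.76, edgeR adjusted p = 0.0176). The arabinogalactan protein AGP30 (AT2G33790) had 172 and 169 CPM at 4 h and 3.72 and 47.1 CPM at 14 h (log2 fold change -3.36 ± 0.73, edgeR adjusted p = 0.0427). At 14 h the single CNQX library held more of it than the mock library, and its drug difference was not called. AGP30 lost its call in 5 alternatives that left out no library. AT3G06460, annotated as a GNS1/SUR4 membrane protein, went from 7.59 and 24.8 CPM to 0.413 and 0 CPM, a ratio of 74.2 in favour of 4 h (exact 95% interval 12.9 to 2971). AT5G60530, AT5G54370 and AT5G19110, annotated as 2 late embryogenesis abundant proteins and an aspartyl protease, had log2 fold changes of -4.54, -3.18 and -3.19. Their calls were lost in 2, 3 and 1 of the alternatives that left out no library. AT5G19110 was at 452 and 498 CPM at 30 min and 16.2 to 37.2 CPM in uncut tips, so that its 42.0 and 29.4 CPM at 4 h were already below its level at 30 min.

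The change from 4 h to 14 h spread more widely over genes in mock than in CNQX, and no gene passed a test of the difference between drugs. Over all genes tested the log2 ratio of 14 h over 4 h (CPM + 1) had an SD of 1.21 in the mock pair and 0.853 in the CNQX pair. More than 4-fold higher at 14 h were 1051 genes in mock and 451 in CNQX, and more than 4-fold lower were 183 and 93. Spearman's rho across genes, which are not independent replicates, was 0.751 between the mock libraries of 4 h and 14 h and 0.881 between the CNQX libraries. Between drugs it was 0.915 at 4 h and 0.901 at 14 h. Of the 266 genes that rose, 244 had the larger ratio in mock, as had 27 of the 34 that fell, by size. Both drugs had the same sign in all 300, which the test itself favours.

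A test of the difference between the drugs' changes, on all 12 libraries with the spread taken from the uncut pairs, called 0 of 18167 genes (0%). At an unadjusted p under 0.05 edgeR had 429 genes and DESeq2, which also called 0, had 155. RHS19 (AT5G67400), a peroxidase specific to root hairs, was among the genes with the lowest p. It went from 0 to 249 CPM in mock and from 8.74 to 81.9 CPM in CNQX, and over both drugs it rose by 5.09 ± 0.97 (log2, edgeR adjusted p = 0.0242). The peroxidase AT5G64120 went from 4.55 to 151 CPM in mock and from 11.96 to 20.12 CPM in CNQX. AT2G03505, annotated as a carbohydrate-binding protein, moved in opposite directions, from 4.05 to 0 CPM in mock and from 0 to 5.89 CPM in CNQX, on 12 counts or fewer per time.

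**Figure D5:**
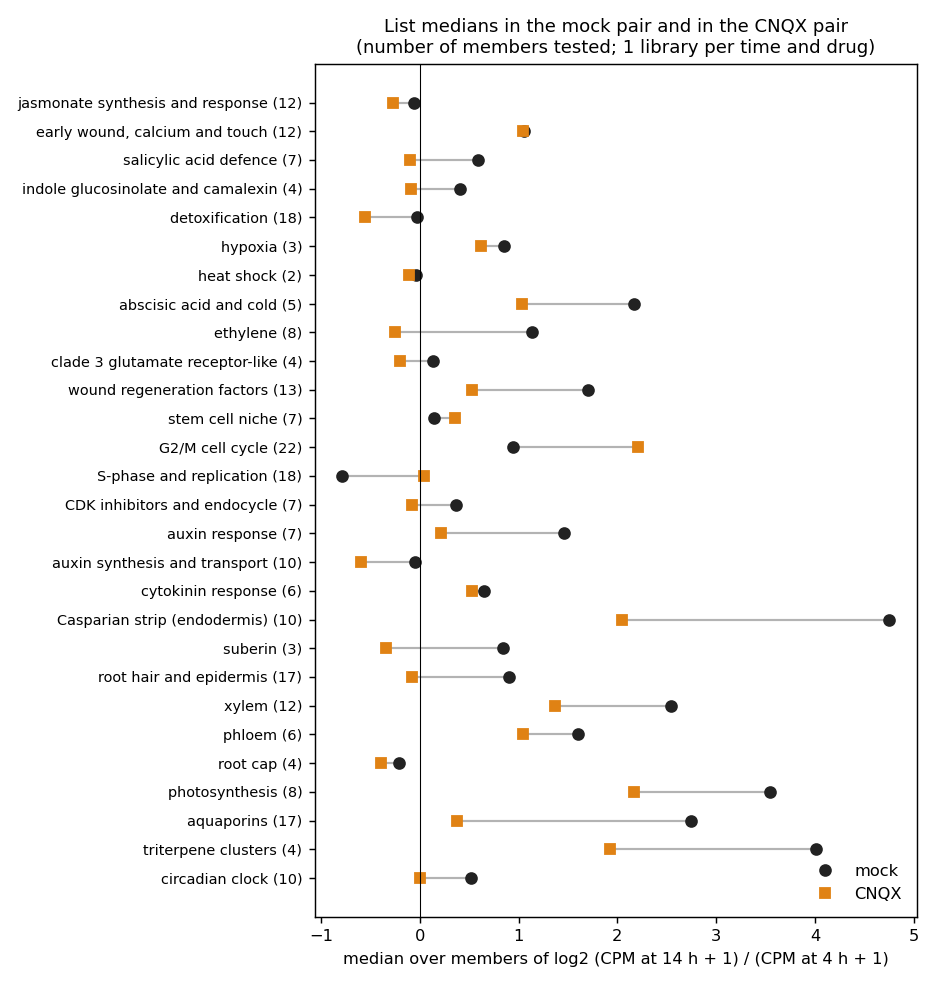
Median over the tested members of each gene list of the log2 ratio of 14 h over 4 h (CPM + 1, horizontal axis), in the mock pair (black circles) and the CNQX pair (orange squares), with 1 library per time and drug and no error. The Casparian strip list has 4.75 in mock and 2.04 in CNQX, aquaporins have 2.74 and 0.38, and the G2/M list has the larger median in CNQX, 2.21 against 0.94.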

How the data were processed

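RNA was amplified with a low-input kit, per the labels' protocols. The authors deposited raw, unnormalized read counts of 32833 loci per library. HISAT2, DESeq2 and the TAIR10 build stand in the submitters' processing notes. The counting tool, its strand setting and versions were not given in the sources used here. Overlapping and antisense genes may therefore share reads. Each file ended in 5 rows that name no gene and were left out (no feature 18.4% to 22.3% and not unique 56.8% to 65.2% of reads in the 4 libraries compared). Names were looked up in the TAIR10.1 annotation (32548 loci matched), and its coordinates were not used.

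The count model was edgeR 4.0.16 in R 4.3.3, with TMM over all 12 libraries, filterByExpr by time with a minimum count of 10, and a quasi-likelihood test of time with drug as a second term (14491 genes, threshold 0.05). Values after ± are standard errors. The drug difference used 10 group means and 2 residual degrees of freedom. Single-library ratios used CPM + 1 and no test. Exact 95% intervals and the floor of 3 counts cover counting error only. Scripts were tested on simulated data.

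The comparison, the 28 gene lists and the rule for names were chosen with earlier results of these data known. Of 447 list entries 442 were used, where the annotation gave the locus that symbol or a synonym, or gave no symbol. PER73 of the root hair list, which the annotation names RHS19 (AT5G67400), was among those left out. Lists were described by counts and medians over the members that passed the filter. A member low at 4 h could pass only through high counts at 14 h, and the reverse. Named were the 12 highest and 12 lowest called genes of average log2 CPM of at least 2, the key list genes, up to 4 called members per list (or 2 of the lowest p) and the genes of lowest p for the drug difference. Alternatives were other scalings, filters, tools (DESeq2 1.42.0, limma 3.58.1 voom), sets of libraries and libraries left out. One gene that the rule took is not reported here.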

Additional observations from a re-analysis of the deposited data

How the results depend on the processing

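All 300 genes kept their sign in every fit that tested them, and the share of higher calls was 88.7% in the report and 83.9% to 93.8% in alternatives that left out no single library. Counts close to 300 came from TMM over the 4 libraries (368), RLE factors (247), DESeq2 (250, of which 205 shared) and organelle and ribosomal RNA loci left out (398, with 59 lower). Without a filter 1017 were called (877 higher, 140 lower), and with a minimum count of 30 there were 174 (148 higher), when 87 of the 300 were not tested. limma-voom gave 559 (469 and 90), no drug term 605 (523 and 82), all 12 libraries 199 (17 lower) and the 8 cut libraries 192 (12 lower). All cut libraries carry replicate number 1, so the numbers pair no 4 h library with a 14 h library more than with another. A replicate block over all 12 libraries gave 327 (293 and 34), and no call in the report is read from it. With single libraries left out, including fits of 3 libraries chosen after seeing the data, counts ran from 0 to 1351, from 0 to 1173 higher and from 0 to 186 lower. Of the 54 named genes called, 18 were called in every alternative that tested them and left out no single library. The drug difference had 1 call without a filter and 0 with each uncut library left out. Signs turned only with a library left out, in uncalled genes, with log2 ranges of -0.90 to 0.84 for CDKB1;1, -0.996 to 0.56 for MCM2, -0.17 to 1.62 for COBL9, -0.75 to 1.34 for APL, -1.10 to 0.52 for HSP90.1, -0.91 to 1.12 for HSP101, -0.43 to 0.77 for HRE1 and -0.22 to 0.81 for GLR3.7; the cause was not tested. At this depth, genes with fewer than about 10 counts in the libraries of a time were mostly left untested.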

Other observations

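Families that the annotation names by product were counted after the values had been seen, so their counts describe the calls and carry no test. Of 27 extensin genes tested, which encode wall glycoproteins, 11 rose and none fell. Over all genes 1.84% were higher and 0.235% lower at 14 h, the shares to set beside each family below. EXT6 (AT2G24980) had 0.506 (mock) and 2.76 CPM (CNQX) at 4 h and 73.5 and 26.0 CPM at 14 h, and AT3G54580 had 12.6 and 40.0 CPM at 4 h and 311 and 177 CPM at 14 h. Genes annotated to the peroxidase superfamily, enzymes that form or loosen wall bonds, had 9 higher and 1 lower of 32 tested. The lower one, AT2G18980, had 371 and 522 CPM at 4 h and 103 and 163 CPM at 14 h. Of 5 tested genes whose annotated product begins with the word laccase, which leaves out LAC4, 3 rose, among them LAC3 (AT2G30210) with 0 and 1.38 CPM at 4 h and 133 and 64.3 CPM at 14 h. Of 13 dirigent-like proteins 5 rose and 1 fell, and AT3G55230 had 0 and 0.920 CPM at 4 h and 108 and 51.5 CPM at 14 h. None of 88 ribosomal protein genes was called, against 2.07% of all genes, and their median log2 fold change was -0.25.

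Wall enzymes of one family moved both ways. Of 19 xyloglucan endotransglucosylases tested, 4 rose and 1 fell, against 1.84% and 0.235% of all genes. XTH14 (AT4G25820) had 0 and 0.920 CPM at 4 h and 106 and 33.9 CPM at 14 h, and XTH30 (AT1G32170) had 20.23 and 59.8 CPM at 4 h and 182 and 156 CPM at 14 h, while XTH5 was lower at 14 h. Of 19 expansins 3 rose and 1 fell, EXPB1 (AT2G20750), with 45.5 and 52.0 CPM at 4 h and 3.302 and 14.2 CPM at 14 h. Members of these families have close copies, and their reads may be split among them. LHY, a morning gene of the clock, was too low to be tested, with 2.02 and 0 CPM at 4 h, 20.23 and 1.47 CPM at 14 h and 83.1 and 21.3 CPM at 24 h; it was picked out after its values were seen.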
